A study of Mus musculus with 121 samples.

Results

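The genes described here carry the symbols of mitochondrial ribosomal proteins. They were taken by name alone, as every gene whose symbol is Mrpl or Mrps followed by a number and at most 1 letter, and 77 of the 23946 genes of the deposited table met that rule. Of these 77 members, 48 are Mrpl genes, named for the large subunit, and 29 are Mrps genes, named for the small subunit. RefSeq places them on 17 chromosomes, with 10 members on chromosome 11 and 8 on chromosome 17. No measured value entered the rule, which was set with earlier results of these data known.

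Single bone marrow cells of C57BL/6 mice were sequenced for their RNA. Every cell carries a mutated Gfi1, which encodes a transcriptional repressor of the neutrophil lineage, with the genotype given as Gfi1-R412X/- among the sample characteristics and as HTZ in the titles. Marrow was enriched on Kit (CD117) beads and sorted, and the cells were processed on the Fluidigm C1 with SMARTer cDNA and Nextera XT libraries. The labels name 2 populations, CD11b+ GMP-P (46 cells, run name 073117) and GMP (75 cells), and cells without the mutation were not analysed here. Of the GMP cells, 62 carry the run name R412X-GMP, 10 July31 and 3 Jul31_2017, and the last 13 are called late July GMP below. The labels tie no cell to an animal. Each population therefore counts as 1 sample, no test over cells was made, and an SD is the spread of single cells. Population and run name cannot be told apart, because no run name is shared. The names 073117, July31 and Jul31_2017 can be read as 1 calendar date common to both populations, but no label says what was done on it. The late July GMP cells go against their label: transcripts of the CD11b gene Itgam were found in 11 of 13 of them, beside 5 of 62 R412X-GMP cells and 35 of 46 cells of CD11b+ GMP-P. Each population result is therefore given with and without them. A deposited annotation gives each cell 1 of 12 state names, used here as written. The sources used here do not say how the names were made, so the members may have entered them. The 11 neutrophil markers summed to 34901 to 532475 TPM per cell in CD11b+ GMP-P, 198 to 115972 in the R412X-GMP run, where Ltf and Ngp were in no cell, and 90152 to 528068 in late July GMP.

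The mitochondrial ribosome translates the few proteins encoded by mitochondrial DNA, which are subunits of the respiratory chain and of ATP synthase. Its own proteins are encoded in the nucleus, made on cytosolic ribosomes and imported into mitochondria. Some members have bacterial counterparts, such as Mrps12 near the decoding centre and Mrpl2 near the peptidyl transferase centre. Others, such as Mrpl42 or Mrps33, were gained by the mitochondrial ribosome. Names do not follow structure throughout: Mrps18a and Mrps30 sit in the large subunit, and Mrps36 is now counted with the 2-oxoglutarate dehydrogenase complex.

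Promoter windows were compared first, since the members are read here as a set that shares a pathway and not a genomic position. RefSeq windows of 300 bases, from 250 bases before to 50 after an annotated start on GRCm38.p6, were matched by symbol for 68 members, which have 74 windows. The table holds 32851 windows in all. The ETS core CCGGAAG stood on either strand in 33.8% of the member windows and in 8.86% of all windows. The palindromic NRF1 motif with 1 open base stood in 17.6% of member windows against 4.6%, and its stricter form without the open base, a subset of it, in 4.05% against 0.971%. The YY1 core AAGATGGCG stood in 10.8% against 1.40%, and the TATA box TATAAA in 6.76% against 13.6%. At least 1 of the ETS, NRF1 and YY1 forms stood in 54.1% of member windows and in 13.6% of all windows, with a median GC content of 58.5% and 52.7%. A match describes letters in the window and is neither a site nor a cause.

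Parts of 280 bases, ending 30 bases after the start, are shown for 5 members that the values below return to, 5′ to 3′ on the gene's strand, with motif matches in capitals. They are Mrpl33, the member with the highest level (chr5:31613701-31613980, plus strand), Mrps21, the highest of the small subunit (chr3:95871485-95871764, minus strand), Mrpl12, which also binds the mitochondrial RNA polymerase (chr11:120484387-120484666, plus strand), Mrpl36, with the largest difference between the main runs (chr13:73330759-73331038, plus strand), and Mrps6, the lowest member (chr16:92058086-92058365, plus strand).
Mrpl33: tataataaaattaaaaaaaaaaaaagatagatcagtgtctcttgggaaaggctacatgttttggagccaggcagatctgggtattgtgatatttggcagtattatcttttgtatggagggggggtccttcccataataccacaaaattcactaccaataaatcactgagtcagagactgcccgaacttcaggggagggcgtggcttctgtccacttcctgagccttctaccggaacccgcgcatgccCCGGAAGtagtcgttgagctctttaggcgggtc
Mrps21: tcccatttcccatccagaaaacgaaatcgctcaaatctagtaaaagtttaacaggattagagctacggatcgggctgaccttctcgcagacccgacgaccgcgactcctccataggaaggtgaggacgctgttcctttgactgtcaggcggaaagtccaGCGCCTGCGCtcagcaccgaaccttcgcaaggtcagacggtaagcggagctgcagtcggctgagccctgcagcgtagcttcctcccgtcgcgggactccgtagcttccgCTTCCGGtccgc
Mrpl12: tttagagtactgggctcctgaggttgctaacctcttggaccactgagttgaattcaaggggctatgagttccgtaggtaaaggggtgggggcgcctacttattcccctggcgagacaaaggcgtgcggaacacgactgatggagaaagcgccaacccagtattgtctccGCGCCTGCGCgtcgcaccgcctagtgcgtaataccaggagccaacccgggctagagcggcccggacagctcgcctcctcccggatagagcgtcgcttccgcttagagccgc
Mrpl36: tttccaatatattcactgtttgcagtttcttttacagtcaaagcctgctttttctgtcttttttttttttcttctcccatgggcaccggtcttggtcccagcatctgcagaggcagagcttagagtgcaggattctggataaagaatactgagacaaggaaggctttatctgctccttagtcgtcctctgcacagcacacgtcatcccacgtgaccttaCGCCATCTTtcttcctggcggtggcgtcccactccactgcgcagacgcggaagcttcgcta
Mrps6: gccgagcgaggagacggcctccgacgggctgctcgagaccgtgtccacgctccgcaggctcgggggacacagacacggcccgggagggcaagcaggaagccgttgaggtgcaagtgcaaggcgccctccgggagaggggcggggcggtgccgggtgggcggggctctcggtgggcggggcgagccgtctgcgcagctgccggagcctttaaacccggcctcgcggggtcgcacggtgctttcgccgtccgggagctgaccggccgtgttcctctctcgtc
Mrpl33 has an ETS core 3 bases before the start. Mrps21 has the NRF1 motif 91 bases before the start and an ETS core, on the other strand, from base 18 after it. Mrpl12 has the NRF1 motif 81 bases before the start. Mrpl36 has the YY1 core on the other strand 31 bases before the start. None of the searched forms stood in the Mrps6 stretch. Over the matched members, the median level was 3.73 for the 25 with an ETS core and 3.01 for the 43 without, in mean log2(TPM + 1) over all cells, given as a description.

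Levels are given as log2(TPM + 1), where TPM is transcript abundance corrected for transcript length and scaled to a fixed total per cell. A TPM of 1 or more counts as detection. Over all cells the members had a median mean level of 3.13, with 3.36 over the large and 2.76 over the small subunit. Mrpl33 stood highest at 8.81 and was detected in 114 cells, or 94.2%. It was followed by Mrpl18 (mean level 7.15), Mrps21 (mean level 6.99), Mrps18c (mean level 6.31), Mrpl42 (mean level 6.12), Mrps33 (mean level 5.92), Mrps14 (mean level 5.57), Mrpl23 (mean level 5.41), Mrpl28 (mean level 5.24) and Mrpl20 (mean level 5.20). Mrps6, detected in 13 cells, had the lowest mean level at 0.40, below Mrps30 at 1.12 and Mrps31 at 1.27. No member was detected in under 5% of the cells. Mrpl33 alone made up 12.5% of the summed member TPM in CD11b+ GMP-P and 9.45% in the R412X-GMP run.

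Short members had higher levels, as the plot of level against coding length shows. Across the 77 members Spearman's rho between the longest GENCODE vM21 coding sequence and the mean level was -0.52, with -0.42 in the large and -0.62 in the small subunit. Across 7909 genes present in 10% or more of all cells it was -0.31, across 78 respiratory chain genes -0.51 and across 82 cytosolic ribosomal protein genes 0.26. These are descriptions across genes that share the same cells and the same length correction. The 25 shortest members, with coding sequences of 195 to 477 bases, were detected in a median of 65.3% of cells. The 25 longest, of 762 to 1326 bases, were detected in a median of 47.9%. Mrps6 (375 bases, level 0.40) stood apart from members of its length, and Mrpl28 (771 bases, level 5.24) from the longer ones.

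**Figure D1:**
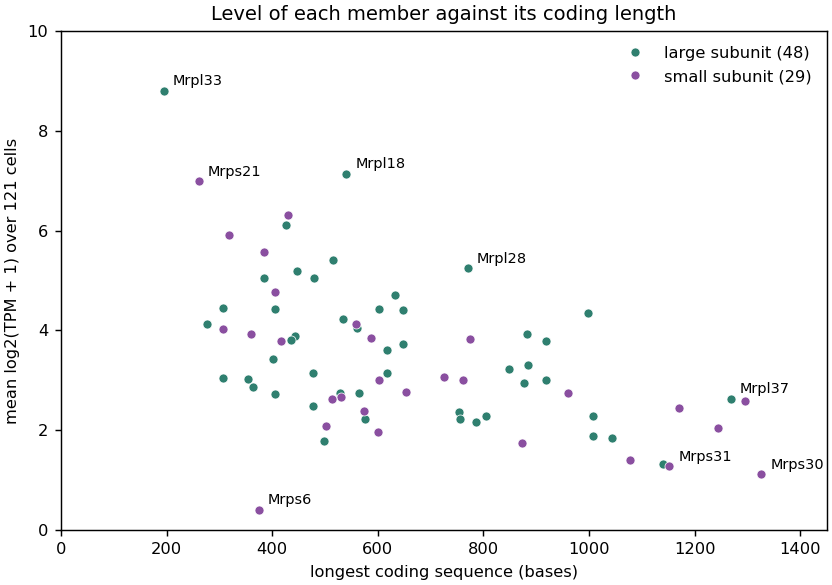
Mean log2(TPM + 1) over all cells (vertical) against the longest coding sequence in bases (horizontal) for each of the 77 members, coloured by subunit. Mrpl33 (195 bases) stands highest at 8.81, and Mrps6 lies lowest at 0.40 in spite of its short coding sequence.

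Members with a bacterial counterpart had a higher median level than members without one. The 44 members with a counterpart had a median of 3.79 and the 28 without one 2.81, while 5 members were not classed. Within the small subunit the medians were 3.06 and 2.65, and within the large subunit 3.81 and 3.03.

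How many members a cell showed followed how many genes of any kind it showed. In CD11b+ GMP-P the lowest, median and highest numbers of detected genes were 967, 2870 and 4738, and the numbers of detected members 7, 26.5 and 66. In the R412X-GMP run they were 1951, 4521 and 6153 genes and 15, 57 and 72 members. Late July GMP cells had 1436, 2570 and 3824 genes and 13, 22 and 49 members. Over all cells Pearson's r between the number of detected genes and of detected members was 0.96 and Spearman's rho 0.95. Within the runs rho was 0.93 in 073117, 0.85 in R412X-GMP and 0.93 in late July GMP. Cells of a run share a run name, and the members count among the detected genes, though leaving them out of that count gave an r of 0.95 over all cells. TPM keeps no read depth, so the depth behind these counts is unknown.

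The summed level of the members followed the number of detected genes in CD11b+ GMP-P and much less in the R412X-GMP run. The lowest, median and highest summed member TPM were 806, 5201 and 11914 in CD11b+ GMP-P, 6232, 10753 and 14578 in R412X-GMP, and 1732, 3386 and 16514 in late July GMP. Ranges of the 3 groups overlapped. Spearman's rho with the number of detected genes was 0.80 in the 46 CD11b+ GMP-P cells, 0.45 in the 13 late July cells and 0.17 in the 62 R412X-GMP cells. Beside it, the 20 most abundant genes of a cell took a median of 35% of its TPM in CD11b+ GMP-P, 16.5% in R412X-GMP and 56.9% in late July GMP. Scaled to the TPM outside those 20 genes, the medians of the summed members were 9173, 12951 and 9050, in the same order. No member was among the 20 most abundant genes of any cell.

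**Figure D2:**
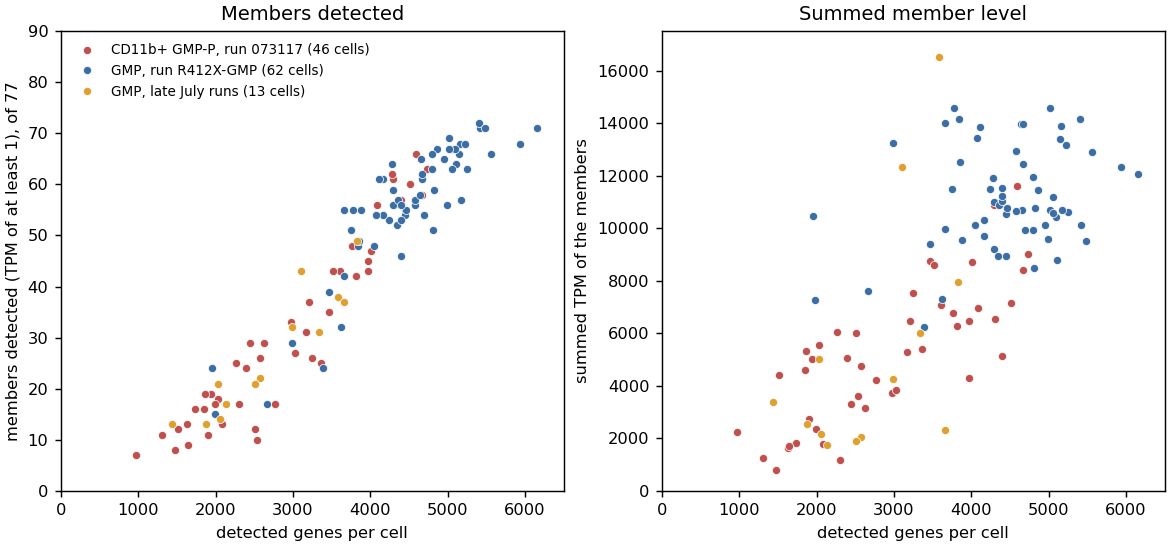
Number of members detected of 77 (left) and summed member TPM (right) against the number of detected genes in each cell, 1 point a cell, coloured by population and run. Cells of all runs lie along 1 band on the left, while on the right the R412X-GMP cells reach 6232 to 14578 TPM with little relation to detected genes.

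Among states with 5 or more cells in a run, the members were detected most often in Gran-1 cells of the R412X-GMP run and least often in Myelo-4. In that run the lowest, median and highest numbers of detected members were 55, 66 and 72 in 9 Gran-1 cells and 17, 59.5 and 71 in 32 Mono cells. They were 48, 55 and 65 in 11 MP cells and 32, 54 and 66 in 5 cMoP cells. The median numbers of detected genes were 4860, 4672, 4455 and 4079 in the same order, so neighbours in this order overlapped in both counts. The single cells of HSCP-1, MDP and Gran-2 had 15, 39 and 56 members, and the Multi-Lin cells had 24 and 29.

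In the 073117 run, 6 Mono cells had 43, 60 and 66 members (lowest, median, highest), 13 Gran-2 cells 10, 43 and 60, and 3 Gran-1 cells 17, 35 and 61. The Myelo states were lower: 5 Myelo-1 cells had 12, 18 and 42 members, 11 Myelo-2 cells 11, 24 and 29, and 7 Myelo-4 cells 8, 13 and 19, and the lone Myelo-3 cell had 7. Median detected genes were 4434 in Mono, 3760 in Gran-2, 2504 in Myelo-1, 2261 in Myelo-2 and 1642 in Myelo-4. The highest Myelo-2 cell, at 29 members, lay below the lowest Mono cell, at 43. In the 7 Myelo-4 cells 30 of the 77 members were detected in no cell, and each such zero leaves room for a share of 42.9%.

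**Figure D3:**
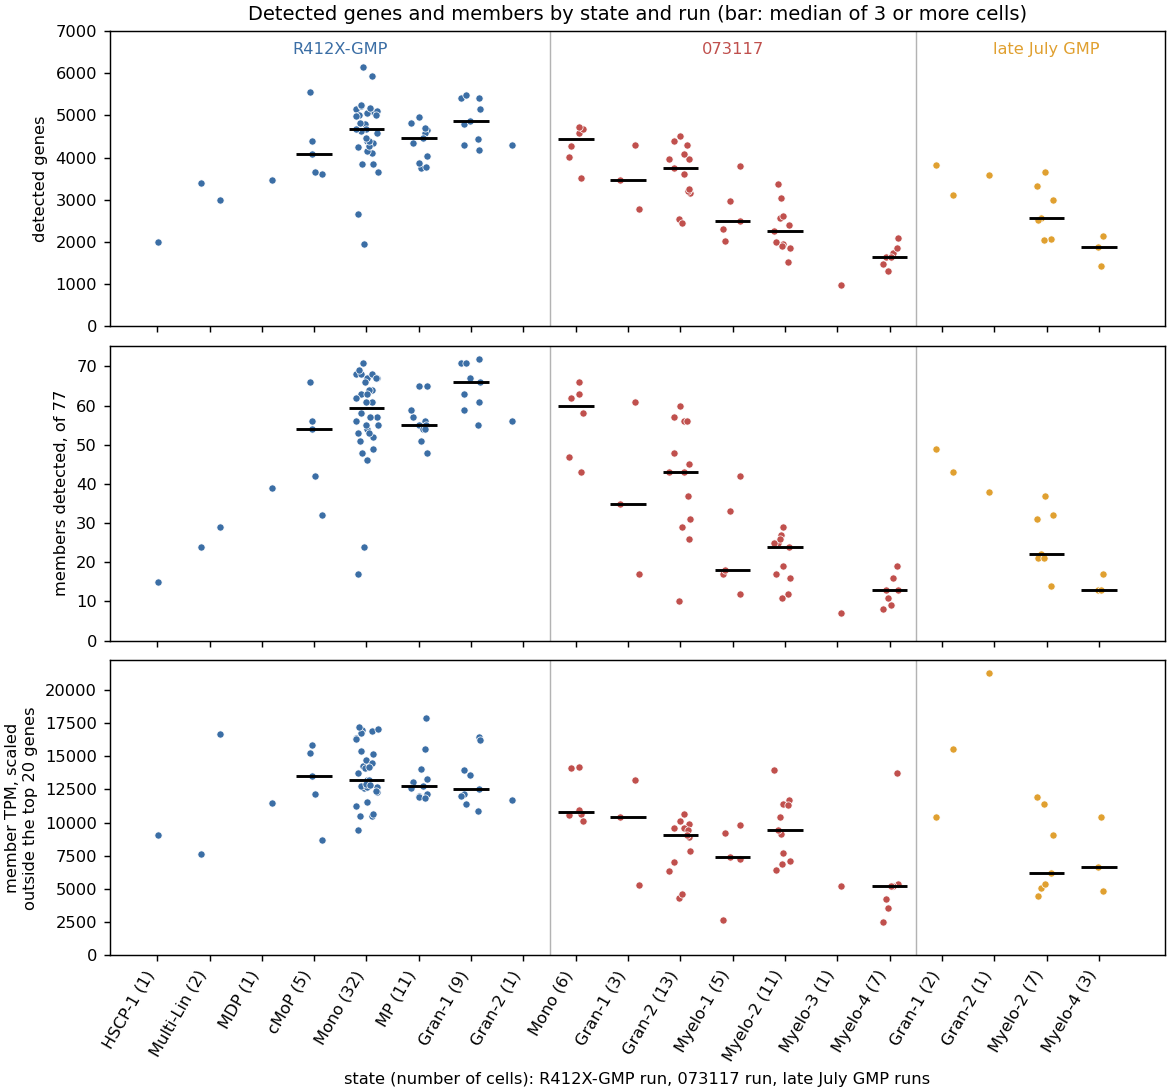
Detected genes (top), members detected of 77 (middle) and summed member TPM rescaled to the TPM outside the 20 most abundant genes (bottom) by state within each run, 1 point a cell, with bars at the median of states with 3 or more cells. The upper panels show a like order of states, except that Myelo-1 lies above Myelo-2 in detected genes and below it in members (18 against 24), while in the bottom panel Mono (10779), Gran-2 (9044) and Myelo-2 (9422) of run 073117 lie closer together, with Myelo-1 (7432) and Myelo-4 (5217) below them.

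Cells with like numbers of detected genes showed like numbers of members. Among cells with 4000 to under 5000 detected genes, chosen after seeing the data, the median number of members was 56 in 15 Mono cells, 56.5 in 8 MP cells and 61 in 5 Gran-1 cells of the R412X-GMP run. It was 62 in 5 Mono cells and 56.5 in 4 Gran-2 cells of the 073117 run. Members per cell ran from 46 to 66 in the R412X-GMP Mono cells and from 56 to 60 in the Gran-2 cells. No Myelo or late July GMP cell lay in this range of detected genes. Summed member TPM in the cells of this range spread more between states: the medians were 11208 in Mono, 10617 in MP and 10329 in Gran-1 of R412X-GMP, 9026 in Mono of 073117 and 6761 in Gran-2 of 073117. The 4 Gran-2 cells spanned 5113 to 7162 TPM and did not overlap the 15 R412X-GMP Mono cells, at 8497 to 13966, or the 5 Mono cells of their own run, at 8399 to 11914. Outside the 20 most abundant genes the Gran-2 cells spanned 7065 to 10672 and then overlapped the Mono cells of both runs, at 10464 to 16939 in R412X-GMP and 10147 to 14211 in 073117.

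The first comparison asked how the members differed between the sorted populations. Members were lower in CD11b+ GMP-P than in GMP, with a median difference of mean log2(TPM + 1) of -1.61, against -0.56 over all 9150 genes kept because 10% or more of the cells on 1 side or the other showed them. A difference of 1 or more in size is called here, without a test. Called lower were 65 of the 77 members and called higher 0, against a background of 28.8% lower and 2.3% higher among all kept genes. Without the late July cells, against the R412X-GMP run alone, the median was -2.11 beside -0.68 over all genes, with 66 members lower and 0 higher (background 36.3% lower and 2.74% higher). Among genes detected in 50% or more of the cells of 1 side or the other, members and all genes lay closer together. Against GMP the medians were then -1.70 over 66 members and -1.19 over all such genes, with 60 members lower (58.9% of all). Against the R412X-GMP run they were -2.20 over 70 members and -1.43, with 64 lower (66.6% of all). Against late July GMP alone the sign turned: the median was 0.44 over 74 kept members and 0.39 over all 77, beside 0.20 over all kept genes. Here 16 members were higher and 4 lower (background 12.7% and 5.95%), or 25 and 11 with the ratio of mean TPM (39.8% and 13.9% of all kept genes), whose median was 0.62 beside 0.58 over all kept genes. These comparisons share the 46 CD11b+ GMP-P cells.

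The member with the largest difference between CD11b+ GMP-P and the R412X-GMP run was Mrpl36, a small protein of the large subunit with a bacterial counterpart. Its lowest, median and highest levels were 0, 0 and 8.78 in CD11b+ GMP-P and 0, 7.49 and 9.86 in R412X-GMP, and it was detected in 19 of 46 and 58 of 62 cells. The mean of Mrpl36 was 2.18 ± 3.07 (SD over 46 cells) against 6.70 ± 2.66 (SD over 62 cells), a difference of -4.52, and the ranges overlapped. Mrps28 differed by -4.19, Mrpl42 by -4.11, Mrpl34 by -3.87 and Mrps33 by -3.86. Mrpl42 was detected in 24 of 46 and 58 of 62 cells. Mrps28 was detected in 15 of 46 and 52 of 62. At the other end Mrpl19 differed by 0.15, Mrpl45 by -0.42 and Mrps6 by -0.52. Mrpl19 was detected in 27 of 46 and 48 of 62 cells, and its gene overlaps Gcfc2, so reads of the pair may not be told apart.

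Limited to cells with 2500 to 4500 detected genes, the members were also lower in 24 CD11b+ GMP-P cells than in 29 R412X-GMP cells, with a median of -1.31 beside -0.26 over all kept genes. In that window 48 members were lower and 2 higher, where 19.5% and 8.09% of all kept genes were. Inside the window the median number of detected genes was still 3487.5 in CD11b+ GMP-P and 4109 in R412X-GMP, so the sides were not fully matched. Against all GMP cells of the window the median was -0.85 beside -0.17. Against the 8 late July GMP cells of the window the sign turned, with a median of 0.36 beside 0.15. There 22 of 75 kept members were higher and 8 lower (18.4% and 9.96% of all kept genes). The part of neutrophil markers, state, run and the remaining difference in detected genes was not tested.

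Against late July GMP, Mrpl30 differed by 2.59, Mrps16 by 2.23, Mrpl28 by 2.0, Mrpl48 by 1.98 and Mrpl18 by 1.57. In the other direction stood Mrpl55 at -2.08, Mrpl13 at -1.53, Mrps18c at -1.25 and Mrpl22 at -1.22. Mrpl28 was detected in 30 of 46 and 5 of 13 cells, yet its ratio of mean TPM gave -0.17. Mrpl55 was detected in 13 of 46 and 6 of 13 cells.

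States present in 2 runs were also compared between the runs, a comparison chosen after seeing the data. Between the 6 Mono cells of run 073117 and the 32 of R412X-GMP the median member difference was -0.22, beside -0.08 over all kept genes. Called higher were 14 members, near the background of 17.5%, and lower 22 (background 17.8%). With upper quartile scaling 7 were higher and 25 lower (15.1% and 19.5% of all kept genes), and the ratio of mean TPM gave 8 and 20 (19.9% and 35.5%). With a pseudocount of 0.1 this median turned to 0.077, so its direction rests on that choice. Mrpl43 differed by -3.07 and Mrpl12 by -2.53, and Mrpl19 by 2.17 and Mrps11 by 1.72. Mrpl43 overlaps Twnk, the mitochondrial helicase gene. Between the 11 Myelo-2 cells of 073117 and the 7 of late July GMP the median was -0.19 over 73 kept members and -0.08 over all 77, beside -0.29 over all kept genes. Here 7 members were higher and 14 lower (background 11.4% and 23.1%), but 30 and 23 with the ratio of mean TPM (29.1% and 32.1% of all kept genes). On that scale the median turned to 0.50, beside -0.19 over all kept genes. The members were led by Mrps18c at -3.38 and Mrpl48 at 2.45. Mrpl46 was listed at 0 in all 11 Myelo-2 cells of 073117 and detected in 4 of 7 of late July GMP.

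**Figure D4:**
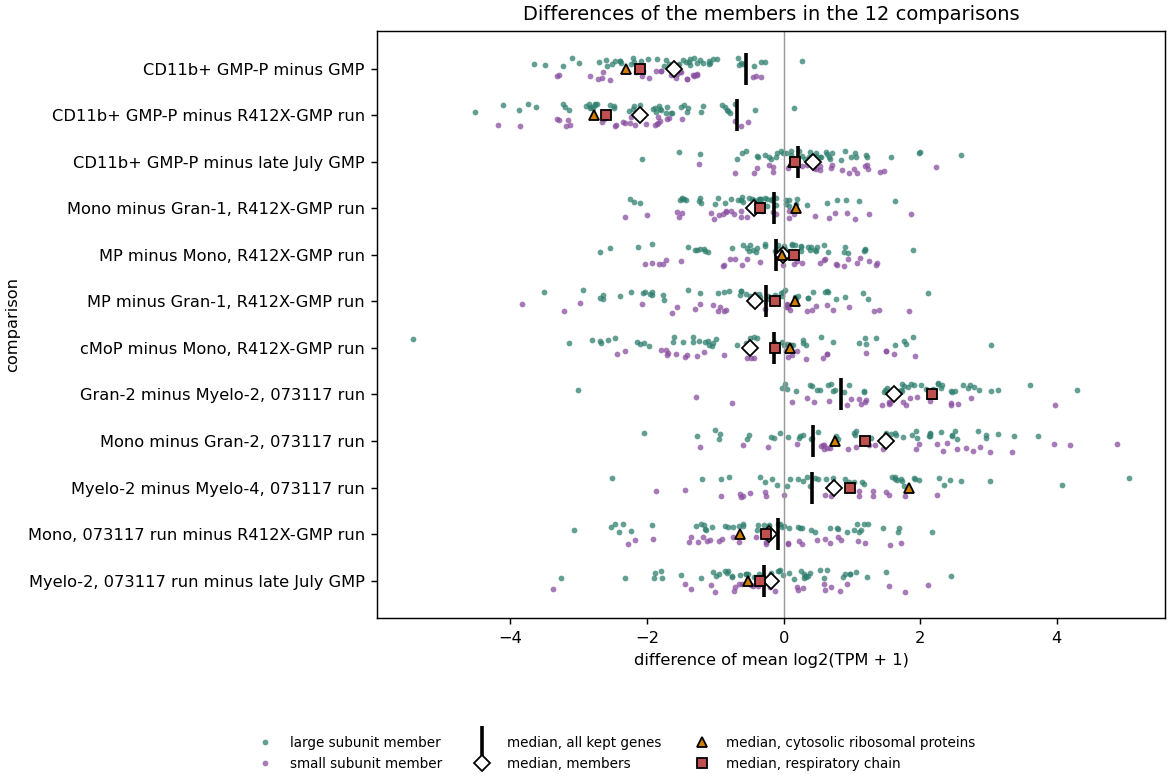
Difference of mean log2(TPM + 1) of each kept member (points, large subunit above and small below) in the 12 comparisons, with medians over the members (open diamond), all kept genes (vertical bar), cytosolic ribosomal proteins (triangle) and respiratory chain genes (square). The members' median lies at -2.11 against the R412X-GMP run and at 0.44 against late July GMP, and near 0 for MP minus Mono.

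Inside the R412X-GMP run the member medians of the states lay nearer 0. The median member difference was -0.43 for Mono minus Gran-1 (all kept genes -0.14), -0.01 for MP minus Mono (all -0.11), -0.42 for MP minus Gran-1 (all -0.26) and -0.50 for cMoP minus Mono (all -0.14). Called higher and lower were 5 and 19 members for Mono minus Gran-1 (background 7.62% and 16.5%) and 9 and 17 for MP minus Mono (background 8.87% and 13.4%). They were 6 and 25 for MP minus Gran-1 (background 9% and 21.4%) and 14 and 33 for cMoP minus Mono (background 15.8% and 20.1%). These comparisons share the cells of their states. With the ratio of mean TPM the medians of Mono minus Gran-1 and MP minus Gran-1 were 0.014 and 0.097, so the direction of these rests on the scale. The calls on that scale were 11 higher and 3 lower for Mono minus Gran-1 (24.2% and 17.8% of all kept genes), and 7 and 16 for MP minus Gran-1 (20.9% and 26.7%). For cMoP minus Mono the members' median on that scale was -0.32 beside -0.41 over all kept genes, so it no longer lay below it. Its calls were 10 higher and 28 lower (18% and 38.5% of all kept genes). For MP minus Mono a pseudocount of 10 left 1 higher and 10 lower (1.99% and 2.63% of all kept genes). In cells with 2500 to 4500 detected genes MP minus Mono had 23 higher and 18 lower (18.6% and 17.8%) and a median of 0.073, so its direction and balance of calls turned.

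Between Mono and Gran-1, Mrps34 differed by -2.32, Mrpl14 by -2.24, Mrpl13 by -2.19, Mrpl49 by -2.10 and Mrps18b by -2.0. Higher in Mono were Mrps7 by 1.86, Mrpl36 by 1.63, Mrps24 by 1.24, Mrpl16 by 1.10 and Mrps12 by 1.05. Mrps7 overlaps Gga3 and Mif4gd, and Mrpl49 overlaps Syvn1, so their levels are uncertain. Mrpl14, a conserved protein of the large subunit, had levels of 4.71, 7.81 and 9.36 (lowest, median, highest) in 9 Gran-1 cells and 0, 6.07 and 9.03 in 32 Mono cells. Gran-1 cells lay in the upper part of the Mono range and overlapped it. Mrpl36 ran the other way, with 2.96, 5.33 and 8.55 in Gran-1 and 0, 7.89 and 9.70 in Mono. Mrpl36 was detected in 9 of 9 and 31 of 32 cells, so its difference lay in level.

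The members that varied most over Mono, MP and Gran-1 were Mrps18b, Mrpl2, Mrps34, Mrps18a and Mrpl1. Mrps18b had means of 6.74 in Gran-1, 4.73 in Mono and 2.91 in MP. Its levels ran 1.5, 7.54 and 9.04 in Gran-1, 0, 6.30 and 9.6 in Mono and 0, 2.48 and 7.48 in MP. Mrpl2 had means of 6.41, 5.44 and 2.90 in that order of states and was detected in 9 of 9, 27 of 32 and 7 of 11 cells. Mrps18a had means of 6.84, 5.78 and 3.86 and was detected in 9 of 9, 27 of 32 and 7 of 11 cells. Mrps34 had means of 6.44, 4.12 and 3.22. Mrpl1, of the mobile stalk at which spent tRNA leaves, had means of 4.36, 4.12 and 1.43 and was detected in 7 of 9, 25 of 32 and 4 of 11 cells. For MP minus Gran-1 the other end was Mrpl36 at 2.11 and Mrps12, of the decoding centre, at 1.83. For MP minus Mono, Mrpl1 differed by -2.69, Mrpl2 by -2.54 and Mrpl34 by 1.90.

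Of these, Mrps18b, Mrpl2, Mrps34 and Mrps18a lie on chromosome 17, and so does Mrpl14, which was also lower in MP than in Gran-1, by -2.64. This was noticed after the values were seen. The 8 members of chromosome 17 had a median MP minus Gran-1 difference of -2.81, with 5 of 8 called lower and a range from -3.83 (Mrps18b) to -0.37 (Mrpl18). All 520 kept genes of chromosome 17 had a median of -0.25, close to the -0.26 of all kept genes, and 21.3% of them were called lower. Mrpl28 and Mrps10, also on this chromosome, differed by -0.80 and -0.84. Mrpl2 overlaps Klc4, Mrpl14 overlaps Tmem63b and Mrps18a overlaps Rsph9, so reads of these pairs may not be told apart.

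The paralogs Mrps18a, Mrps18b and Mrps18c encode related proteins placed at different sites of the mitochondrial ribosome. Mrps18c had the highest mean level of the 3, with means of 7.82 in Gran-1, 7.90 in Mono and 7.89 in MP of the R412X-GMP run. Its means thus lay within 0.1 of each other where those of Mrps18a and Mrps18b spread. In mean TPM, however, Mrps18c stood at 382 in Gran-1, 426 in Mono and 647 in MP, so its evenness rests on the log scale. All 3 paralogs were detected together in 9 of 9 Gran-1, 19 of 32 Mono and 5 of 11 MP cells of that run. In run 073117 the 3 were detected together in 8 of 46 cells and in late July GMP in 0 of 13.

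The 5 cMoP cells differed from Mono in both directions. Mrpl55 was listed at 0 in each of the 5 cMoP cells, so a share of up to 60% is possible, and detected in 24 of 32 Mono cells at 0, 7.06 and 10.69 (lowest, median, highest). Mrpl32, whose protein is matured by the m-AAA protease, ran from 6.67 over 8.41 to 9.33 in cMoP and from 0 over 6.02 to 8.41 in Mono, a difference of 3.03. Mrpl4 differed by -3.14, Mrpl48 by -2.81, Mrpl36 by -2.68 and Mrpl54 by -2.67. With 5 cells on 1 side a single cell weighs on each value.

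Inside the 073117 run the members stepped down from Mono over Gran-2 and Myelo-2 to Myelo-4. Mono minus Gran-2 had a median of 1.5 over 77 members, beside 0.43 over all kept genes, with 47 members higher and 4 lower (background 31.3% and 11.8%). Gran-2 minus Myelo-2 had 1.62 over 74 kept members and 1.55 over all 77, beside 0.83, with 51 higher and 2 lower (background 43.4% and 5.29%), or 38 and 7 with the ratio of mean TPM (52.5% and 15.2% of all kept genes). On that scale the members' median was 1.09 beside 1.13 over all kept genes, so it no longer lay above it. Myelo-2 minus Myelo-4 had 0.73 over 62 kept members and 0.60 over all 77, beside 0.42, with 28 higher and 4 lower (background 30.7% and 10.9%), or 35 and 11 with that ratio (47.2% and 23.8%). Median detected genes in Mono, Gran-2, Myelo-2 and Myelo-4, at 4434, 3760, 2261 and 1642, moved the same way, and their part in these differences was not tested.

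Mrpl48, a member without a bacterial counterpart, broke that order. Its levels were 5.21, 7.06 and 8.75 in 6 Mono cells, 0, 4.74 and 8.23 in 13 Gran-2 cells, 0, 8.49 and 9.97 in 11 Myelo-2 cells and 0, 0.67 and 8.61 in 7 Myelo-4 cells. Mrpl48 thus differed by -3.02 for Gran-2 minus Myelo-2 and by 4.07 for Myelo-2 minus Myelo-4. It was detected in 9 of 11 Myelo-2 cells and in 9 of 13 Gran-2 cells, and Myelo-2 and Mono cells overlapped. In late July Myelo-2 cells it was detected in 6 of 7, with a median of 4.55. Mrpl48 overlaps Rab6a, and a pseudogene Mrpl48-ps is annotated, so its level is uncertain.

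Mrpl18 was detected in Myelo-2 in 10 of 11 cells with a mean of 6.54, and was detected in 1 of 7 Myelo-4 cells, a difference of 5.05. Its gene overlaps Tcp1, a subunit of the cytosolic chaperonin. Mrpl46 and Mrps36 were listed at 0 in all 11 Myelo-2 cells, so a share of up to 27.3% is possible, and both were also at 0 in the 7 Myelo-4 cells. In Gran-2, Mrpl46 was detected in 9 of 13 cells and Mrps36 in 8 of 13. Pseudogenes named after Mrps36 are annotated, so its level is uncertain. Mrpl42, Mrpl43 and Mrpl51 differed by 3.61, 3.13 and 3.04 for Gran-2 minus Myelo-2. For Mono minus Gran-2 the largest differences were Mrps28 at 4.88, Mrps18a at 4.19, Mrps11 at 3.96 and Mrpl36 at 3.72. Mrps28 was detected in 5 of 6 Mono and 5 of 13 Gran-2 cells. Mrpl43 at -2.05 and Mrpl41 at -1.26 were lower in Mono.

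Members with high levels in the Myelo-4 cells were few. Mrpl33 was detected in 6 of 7 of them at 0, 8.82 and 9.76, Mrps18c in 5 of 7 at 0, 5.67 and 10.15, and Mrps21 in 5 of 7 at 0, 4.55 and 9.09. Mrpl33 made up 19.8% of the summed member TPM in Myelo-4 against 10.5% in Gran-2 and 9.59% in Mono of that run. Mrpl51 was higher in Myelo-4 than in Myelo-2, by a difference of -2.51 for Myelo-2 minus Myelo-4, and Mrps18c likewise by -1.88.

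**Figure D5:**
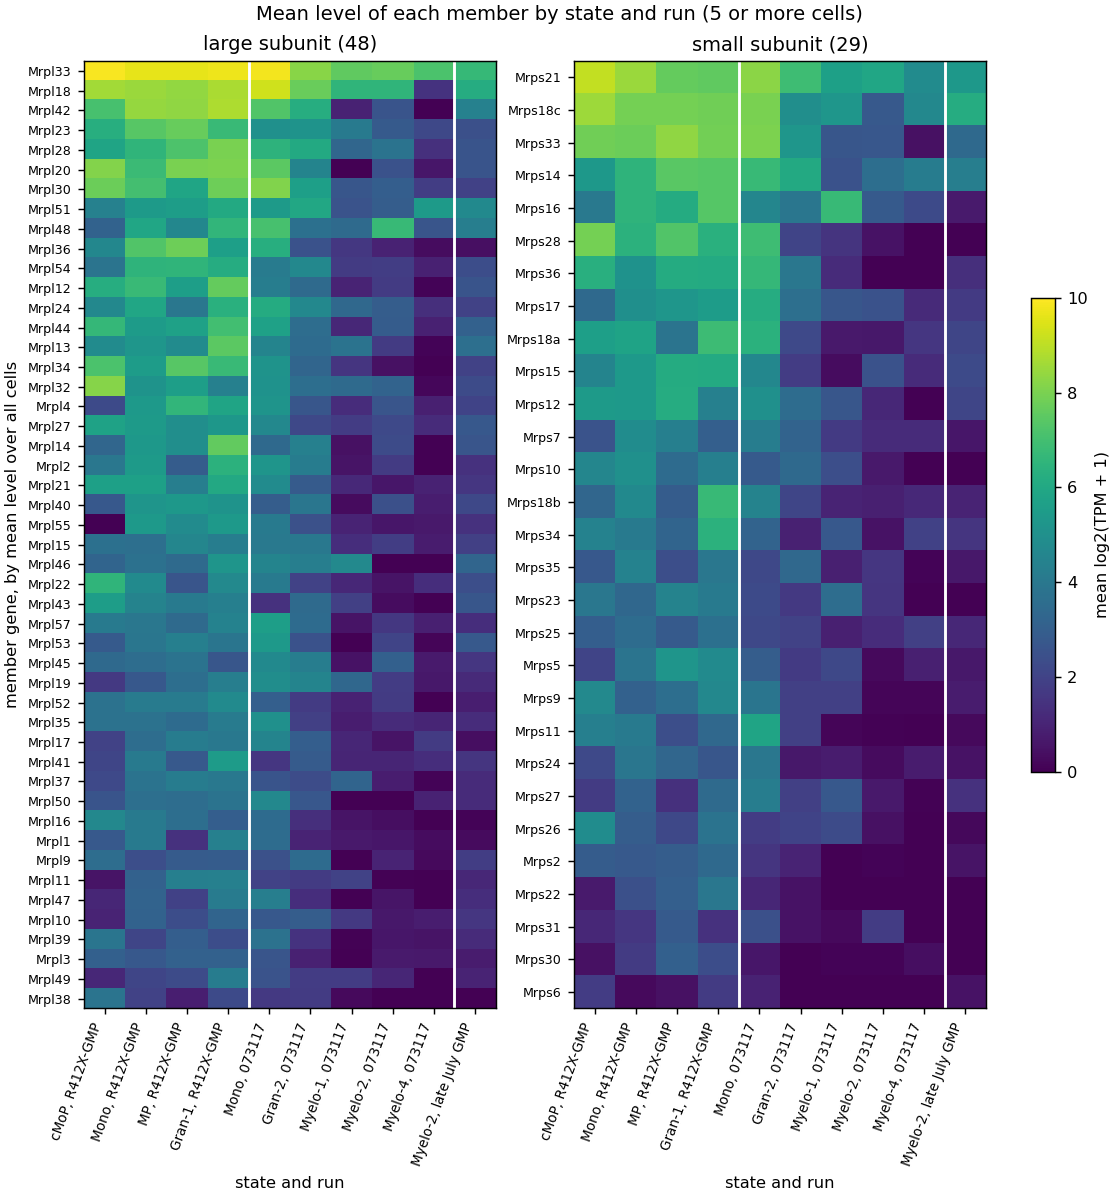
Mean log2(TPM + 1) of each member (rows, by mean level over all cells, large subunit left and small right) in each state and run with 5 or more cells (columns, white lines between runs). Mrpl33 is among the higher rows in every column, Mrpl55 is dark in cMoP, and Mrpl48 is brighter in Myelo-2 than in Gran-2 and Myelo-4 of run 073117.

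The large subunit members lay above the small subunit members in most cells. The per-cell mean over Mrpl members minus that over Mrps members was above 0 in 87 cells (71.9%, exact Clopper-Pearson 95% interval 63 to 79.7, counting error only), with a median of 0.48. The share was 37 of 46 in CD11b+ GMP-P, 40 of 62 in R412X-GMP and 10 of 13 in late July GMP, with medians of 0.51, 0.38 and 0.64. Large subunit members made up a median of 68.9% of the summed member TPM. With Mrps18a and Mrps30 counted as large and Mrps36 left out, that share was 71.6%.

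The subunit difference had its highest median among states with 5 or more cells in Gran-2 of run 073117, where it ran from 0.09 over 0.83 to 2.15 and was above 0 in 13 of 13 cells. In the 3 Gran-1 cells of that run the values were above 0 as well, with a median of 1.12. In Gran-1 of R412X-GMP it ran from -1.01 over 0.77 to 0.99 and in Mono of that run from -1.07 over 0.33 to 2.34. Its medians were 0.36 in MP, -0.01 in cMoP, 0.33 in Mono of 073117 and 0.56 in Myelo-2 of 073117. Myelo-1 (median -0.33) and Myelo-4 (median -0.07) were the 073117 states with a median below 0. The ranges overlapped across all these states. Spearman's rho with the number of detected genes was 0.03 over all cells and 0.27 in run 073117. In the comparison of CD11b+ GMP-P with R412X-GMP the medians of the subunits were -2.01 (large) and -2.24 (small). For Myelo-2 minus Myelo-4 they were 0.93 over 42 kept large and 0.30 over 20 kept small subunit members.

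The other lists of mitochondrial translation had medians from -1.99 to -0.59 in CD11b+ GMP-P minus R412X-GMP, beside -2.11 over the members and -0.68 over all kept genes, of which 36.3% were called lower. Of 6 such proteins 5 were lower, with a median of -1.99, among them Chchd1 at -2.60, Aurkaip1 at -2.22 and Ict1, a peptide release factor built into the ribosome, at -2.0. Of 11 kept translation factors 8 were lower, with a median of -1.15, led by Mtfmt, which formylates the initiator tRNA, at -1.79. Of 14 assembly and rRNA modification genes 5 were lower (median -0.59), led by Malsu1 at -2.55. Of 8 genes of mitochondrial genome expression 4 were lower (median -1.17), led by the mRNA-binding Slirp at -3.99 and by Ssbp1, which binds single-stranded DNA, at -3.70. Of 18 kept genes listed as mitochondrial tRNA synthetases 8 were lower (median -0.80), led by Kars at -3.42 and then Lars2 at -1.62. Kars, Gars and Qars were added to this list by name and also encode cytosolic enzymes. The value of Kars is therefore not specific to mitochondria, and the counts of the list may not be. The share called lower was thus 35.7% for assembly genes and 44.4% for tRNA synthetases, near that of all kept genes, and no gene of these lists was called higher. Against late July GMP the medians of the lists, in this order, were 0.75, 0.19, 0.15, 0.16 and 0.33.

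Cytosolic ribosomal proteins and the respiratory chain differed by more than the members in that comparison. The respiratory chain list holds nuclear-encoded genes only, so none of its genes is translated by the mitochondrial ribosome. Of 83 kept cytosolic ribosomal proteins 82 were lower in CD11b+ GMP-P than in R412X-GMP (median -2.78), and of 79 kept respiratory chain genes 77 (median -2.60). Median levels over all cells were 9.44 for 82 cytosolic ribosomal proteins, 7.02 for 79 respiratory chain genes and 3.13 for the members. The sizes of these differences follow the order of the levels, and a low level leaves less room to fall. The part of level was not tested. For Mono minus Gran-2 in run 073117 the order of the differences was reversed, with 0.75 for cytosolic ribosomal proteins, 1.19 for the respiratory chain and 1.5 for the members. For Gran-2 minus Myelo-2 the medians were 2.18, 2.17 and 1.62, and for Mono minus Gran-1 of R412X-GMP 0.18, -0.35 and -0.43. Across the 62 R412X-GMP cells Spearman's rho of summed member TPM was 0.26 with summed respiratory chain TPM and -0.05 with summed cytosolic ribosomal protein TPM. In the 46 CD11b+ GMP-P cells these were 0.72 and 0.79. The cells of a run share a run name, and the sums share 1 scale.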

How the data were processed

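Single-cell RNA sequencing of marrow cells was used. The authors' deposited table holds log2 values of 23946 genes. Back-transformed as TPM + 1 on the log2 scale, each cell summed to 999517 to 1001450 TPM, and 81.7% of values were 0. Bowtie2, RSEM and mm9 are named in the submitters' processing notes, with versions not given in the sources used here. The state names are the authors' deposited annotation. Read depth is unknown, so a 0 can be a missed transcript, and no count test was possible.

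Detected genes, members and summed TPM were computed per cell. A gene was kept in a comparison when detected (TPM of at least 1) in 10% or more of the cells on 1 side or the other, and differences are of mean log2(TPM + 1) with a pseudocount of 1, which understates changes of low genes. Called means a difference of at least 1. With 1 sample a population, no p-value was computed. Shares carry exact (Clopper-Pearson) 95% intervals, or for 0 the limit of 3 cells, for counting error only. The highest correlation between any pair of cells was 0.73, so no cell was taken as a repeat of another.

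Members, lists, motifs and the naming rule were chosen with earlier results of these data known. The rule names the 10 highest members, in each comparison the 5 members with the largest difference in each direction, the 5 that vary most over 3 states, the Mrps18 paralogs, Mrps12 and Mrpl12, and 3 genes of each other list. Not each gene it takes is reported. The lowest members, those of chromosome 17 and the members named for their level in Myelo-4 were chosen after their values were seen. Promoter windows are RefSeq's on GRCm38.p6, and coding lengths are from the GENCODE vM21 basic set, on another build than mm9, matched by symbol. The difference script was tested on simulated data, with shifts put only into genes of higher level, a capped spread and no missed transcripts added. Shifts of low members were thus not covered. Python 3.11.15, pandas 2.3.3, numpy 2.4.6, scipy 1.17.1 and matplotlib 3.10.9 were used.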

Additional observations from a re-analysis of the deposited data

Results flagged for a closer look

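In the 7 Myelo-4 cells of run 073117 the highest cell had a summed member TPM of 5337, far from the next at 1801. That cell had 1860 detected genes and 19 detected members, the highest number of the 7. Mrps18c at 1139 TPM, Mrpl28 at 829, Mrpl33 at 795, Mrpl22 at 624 and Mrpl23 at 614 were its leading members, and Mrps18c made up 21.3% of its member TPM. Of 18 checks for such a gap, 1 showed it, where chance gives about 1 in 20. Each check took 1 measure in 1 group of cells: detected members, summed member TPM or the subunit difference. Checks of the same group share its cells.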

How the results depend on the processing

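No paired analysis was possible because each cell is its own sample and the numbers in the titles are positions of cells. The 12 median differences, the numbers of members per cell and the large against small subunit differences were recomputed under other settings. Of all these values together, 129 kept their direction and moved by less than the spread of cells, 4 moved further and 9 changed sign. With the ratio of mean TPM, Mono minus Gran-1 turned to 0.014, MP minus Gran-1 to 0.097 and Myelo-2 of 073117 minus late July GMP to 0.50, and Myelo-2 minus Myelo-4 moved to 1.75. MP minus Mono, near 0, turned to 0.051 with a pseudocount of 10, 0.018 without the 20 most abundant genes, 0.15 for the small subunit alone and 0.073 in cells with 2500 to 4500 detected genes. Mono of 073117 minus R412X-GMP turned to 0.077 with a pseudocount of 0.1, and ranged from -0.54 to 0.077 without 1 cell at a time. Gran-2 minus Myelo-2 moved to 2.63 with a pseudocount of 0.1 and to 0.74 with 10, and Myelo-2 minus Myelo-4 to 0.30 for the small subunit alone. Of single members, the ratio of mean TPM turned Mrpl28 to -0.17 against late July GMP and to -0.63 for Myelo-2 minus Myelo-4, and Mrpl13 to 0.50 for Myelo-2 between runs. The cause was not tested.

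Counts of called members moved by over 1.5 times mainly with the pseudocount and the scale. With a pseudocount of 10, members lower in CD11b+ GMP-P than in GMP numbered 31 in place of 65, and 41 with the ratio of mean TPM, while the share of all kept genes called lower was 10.1% and 28.6% in place of 28.8%. Below, shares in brackets are those of all kept genes called in the same direction at the same setting. With a pseudocount of 10, 5 in place of 16 were higher than in late July GMP (3.11%). For Mono minus Gran-1, 6 in place of 19 were lower (5.07%). It left 15 in place of 25 lower for MP minus Gran-1 (7.52%) and 16 in place of 33 lower for cMoP minus Mono (6.17%). The same pseudocount gave 25 in place of 51 higher for Gran-2 minus Myelo-2 (20.2%) and 31 in place of 47 for Mono minus Gran-2 (14.7%). For Myelo-2 minus Myelo-4 it gave 12 in place of 28 higher (13.1%). For Mono between runs it gave 3 higher and 11 lower in place of 14 and 22 (7.7% and 4.64%). For Myelo-2 between runs it gave 3 and 5 in place of 7 and 14 (4.11% and 7.57%). A pseudocount of 0.1 gave 33 lower for Mono minus Gran-1 (27.5%) and 16 in place of 9 higher for MP minus Mono (17%). It gave 10 in place of 6 higher for MP minus Gran-1 (15.4%). For Myelo-2 between runs it gave 12 higher and 24 lower (17.3% and 38%). The ratio gave 30 higher for Mono minus Gran-2 (30.6%) and 5 higher for MP minus Mono (15.2%). Detection in 50% of either side left 26 members against late July GMP, with 10 higher and 2 lower (19.6% and 12.4%). It left 8 members for Myelo-2 minus Myelo-4, with 4 higher and 2 lower (49% and 16.1%). Their median was 0.81, below the 0.95 of all kept genes. For Myelo-2 between runs it left 15 members, with 2 higher and 6 lower (14.6% and 39.1%). In the window of detected genes 23 members were higher for MP minus Mono (18.6%) and 36 lower against GMP (14.2%). States with too few cells in that window have no value there.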
